A study of Mus musculus with 16 samples.

Results

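The clustered protocadherins are cadherin-superfamily adhesion genes that lie next to each other in an alpha, a beta and a gamma cluster. They were taken from a table of read counts per Ensembl gene as the rows whose mouse symbol is that of an alpha, beta or gamma protocadherin and that held any count. The rule took 24 of the 25953 genes with a count (37991 genes in the table): 1 alpha row (Pcdha11, ENSMUSG00000007440), all 22 beta genes (Pcdhb1 to Pcdhb22) and 1 gamma row (Pcdhgc4, ENSMUSG00000023036). RNA-seq was run on both ventricles, taken apart as left and right, of 8 embryos. Hypoplastic left heart syndrome (HLHS) is a congenital heart defect in which the left ventricle and its valves and outflow are too small. The groups were HLHS left ventricle (n = 3), control left ventricle (n = 5), HLHS right ventricle (n = 3) and control right ventricle (n = 5). In each group replicate 1 was of embryonic day E13.5; the HLHS group then had 1 embryo of E14.5 (replicate 2) and 1 of E17.5 (replicate 3), and the controls had 2 of E14.5 (replicates 2 and 3) and 2 of E17.5 (replicates 4 and 5), all littermates of the HLHS embryo of that stage. All embryos carried the strain label C57BL/6. The labels give the phenotype of each embryo but no genotype, allele or sex, nor whether RNA of several hearts was pooled.

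Clustered protocadherins form pairs on the cell surface that bind the same pairs on a facing cell. In neurons each cell switches on a few of the promoters, a choice that depends on DNA methylation and on CTCF and cohesin, and the resulting surface code lets branches of 1 neuron recognise and avoid each other. An alpha or gamma transcript joins a variable first exon, which codes for the whole extracellular part, to constant exons that all genes of the cluster share, whereas each beta gene codes for its protein in an exon of its own and has no shared constant part. Pcdhgc4 is a C-type gamma gene, a class that in neurons is less subject to random choice and that is needed for neuron survival. Pcdha9 is known, with Sap130, from a mouse line with HLHS. It was not analysed here.

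The structure of the clusters decides what the rows can show. The annotation used for symbols (GENCODE M21) lists 58 clustered protocadherin IDs, 14 alpha, 22 beta and 22 gamma, of which the beta genes are all among the 24 rows. The other 13 alpha and 21 gamma IDs, the C-type genes Pcdhac1, Pcdhac2, Pcdhgc3 and Pcdhgc5 among them, were not analysed here, and all 34 are numbered above the highest ID of the table. Which gene models the authors counted on is not given in the sources used here. The alpha and the gamma row may therefore each hold the reads of 1 gene, of the constant exons or of a whole cluster, and they are called the alpha row and the gamma row below. The alpha row's ID is named Pcdha11 in GENCODE M21, but its start lies near that of Pcdha10 in RefSeq, so its gene is uncertain as well. In the annotation, 60.1% of the 50-base words of the alpha row's transcripts and 37.1% of those of the gamma row's recurred in another gene, against a median of 4.48% (0% to 64.2%) over the beta genes. Pcdhb12 had the 64.2%. Coding sequences of beta genes matched each other at 61.8% to 89.8% of positions (median 75.8% over 231 pairs); the closest pair was Pcdhb7 and Pcdhb9. A read from such a shared stretch could be dropped or misplaced, so single beta genes are less certain than their sum.

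Libraries held 17081273 to 28648645 counts. Of these, 443 to 1145 fell on the 22 beta genes together, 11 to 69 on the alpha row and 5099 to 9286 on the gamma row. Levels are given below in CPM, read counts divided by a library size scaled by the trimmed mean of M values (TMM), and intervals on a single library's CPM are exact Poisson intervals at 95% that cover counting error only. Ventricular identity was visible in all 16 libraries: the 8 cardiomyocyte markers summed to 19600 to 25400 CPM in HLHS ventricles and to 19400 to 32900 CPM in control ventricles, and Myl2, the ventricular myosin light chain gene, lay between 1590 and 2270 CPM.

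RNA of the ventricles held many beta genes at low level rather than a few. Bulk RNA pools many cells, so the number of beta genes used by a single cell was not measured. Between 21 and 22 of the 22 had a read in a library, and 13 to 20 had at least 10. Pcdhb17 (ENSMUSG00000046387) averaged 4.43 CPM over all libraries, Pcdhb22 3.22 CPM and Pcdhb20 2.80 CPM. Pcdhb17 led the cluster in 15 libraries; in HLHS left ventricle 1 Pcdhb22 did. The leading gene made up 12% to 19.8% of a library's beta counts, and the evenness of the counts corresponded to 14.4 to 16.9 equally used genes. Per kilobase of coding sequence, Pcdhb17 had 1.85 CPM, Pcdhb22 1.35 CPM and Pcdhb20 1.17 CPM on average. Per kilobase of annotated exon, the order changed: Pcdhb17 had 0.951 CPM, Pcdhb20 0.788 CPM and Pcdhb22 0.487 CPM. Pcdhb22 overlaps its neighbour Pcdhb21 in the annotation, so reads of the overlap cannot be assigned to either. At the other end Pcdhb1, the first gene of the cluster, had 1 read in each of 3 control libraries and none in any HLHS library.

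The mixture of beta genes was similar from library to library. Across pairs of libraries, the log2 CPM of 21 beta genes correlated with Pearson's r of 0.839 to 0.978 (median 0.932 over 120 pairs), a correlation across genes within the same assay, whose points share gene length and mappability. Along the cluster, genes 2 to 11 had a median of 0.194 CPM per kilobase of exon and genes 12 to 22 one of 0.344 CPM per kilobase of exon. Position and this level had a Spearman correlation of only 0.358 over the 21 genes without Pcdhb1, so a trend along the cluster was weak.

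**Figure D1:**
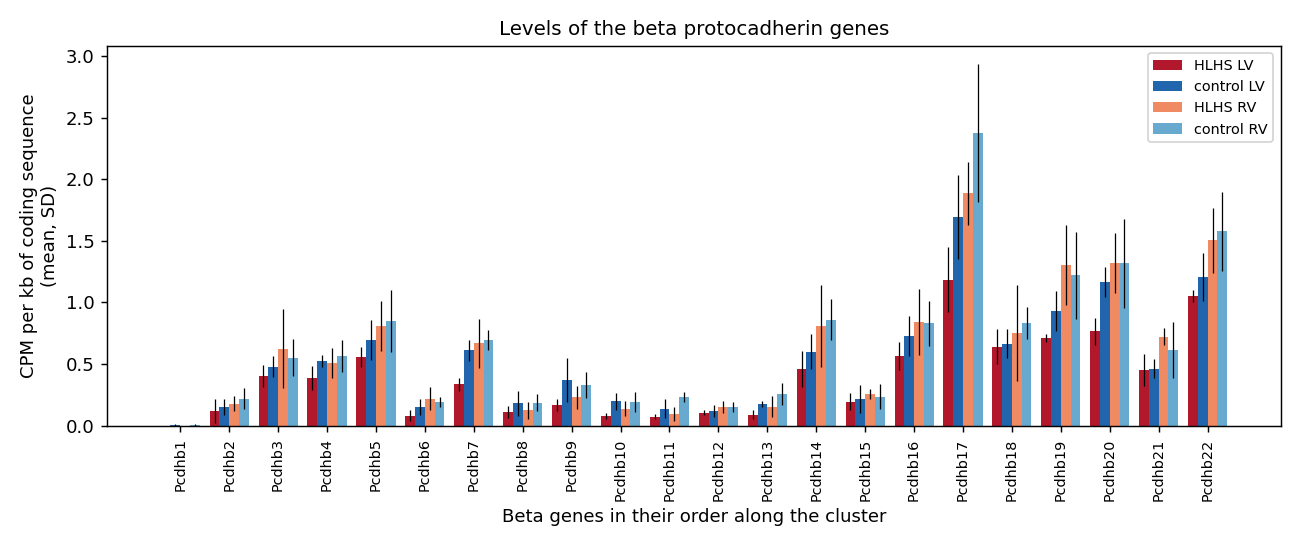
Mean level of each beta gene in CPM per kilobase of coding sequence (vertical axis; error bars, SD over libraries) in the HLHS and control left ventricle and the HLHS and control right ventricle, with genes in their order along the cluster. Pcdhb17 is the highest in all 4 groups and Pcdhb1 is near 0; for 21 of the 21 beta genes that pass the count filter the HLHS left ventricle has the lowest mean.

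The gamma row was far above both other clusters, at 242 to 324 CPM in HLHS left ventricles, 212 to 335 CPM in control left ventricles, 268 to 355 CPM in HLHS right ventricles and 213 to 334 CPM in control right ventricles. It had 51.4 CPM per kilobase of exon on average, against 0.221 for the alpha row, both with the ambiguity named above. The alpha row had 0.467 to 1.05 CPM in HLHS left ventricles, 0.786 to 1.61 CPM in control left ventricles, 1.29 to 1.56 CPM in HLHS right ventricles and 0.938 to 2.63 CPM in control right ventricles. By group means, the HLHS left ventricle had the lowest level for 21 of the 21 beta genes that pass the count filter over all libraries, and for 28.2% of the 16209 genes of the table that pass it. The highest alpha value, 69 reads or 2.63 CPM, belonged to control right ventricle 2. That library also had the highest beta sum of all 16.

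In the HLHS left ventricle the beta cluster as a whole had less RNA than in littermates. The summed beta level was 20.1, 19.2 and 21.9 CPM in HLHS left ventricles of E13.5, E14.5 and E17.5, against 25.1 CPM (E13.5), 27.2 and 28.6 CPM (E14.5) and 28.1 and 28.7 CPM (E17.5) in control left ventricles. The 2 groups did not overlap, and each HLHS value lay below every littermate of its stage. The mean was 20.4 ± 1.39 CPM in HLHS left ventricles (SD, n = 3) and 27.5 ± 1.49 CPM in control left ventricles (SD, n = 5). Within litters the log2 difference averaged −0.41 ± 0.12 (SD over 3 litters), a fold of 0.753. By stage, the E13.5 litter gave −0.32, the E14.5 litter −0.54 and the E17.5 litter −0.37. Without Pcdhb17, the most abundant member, the average was −0.40. No p is given for the sum, because the members were chosen with results of these data known. Each HLHS stage is a single embryo. In bulk tissue, fewer cells that express these genes and less RNA per cell cannot be told apart.

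**Figure D2:**
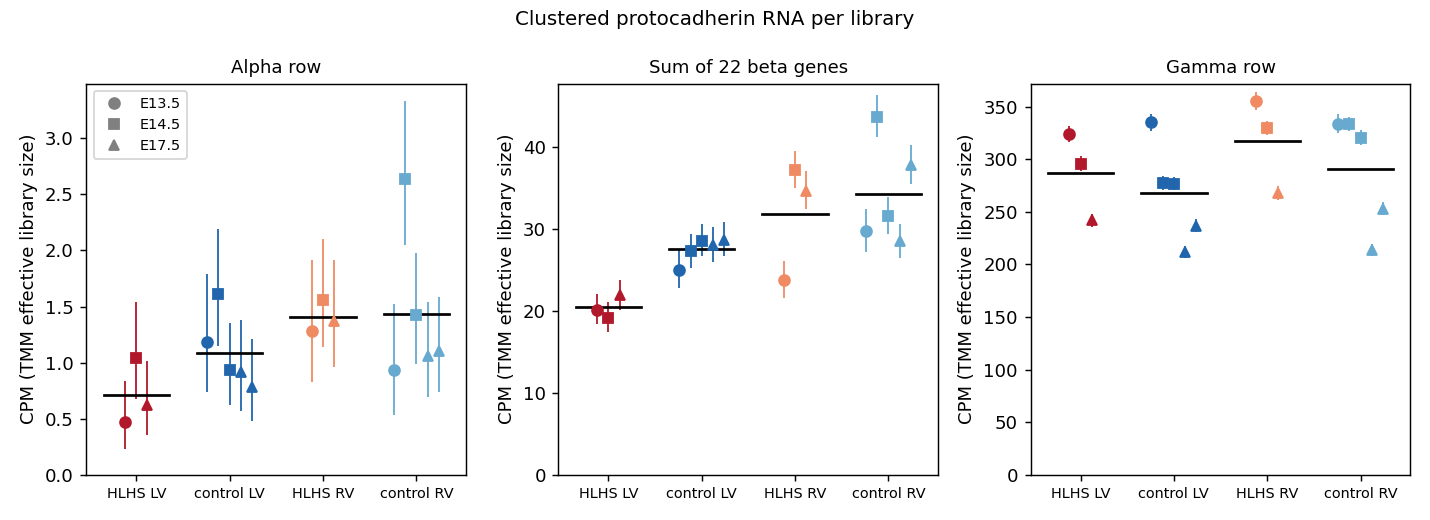
Level per library in CPM (vertical axes, starting at 0) of the alpha row, the sum of the 22 beta genes and the gamma row in HLHS and control left and right ventricles; symbols mark the stage, error bars the 95% Poisson interval and black lines the group mean. HLHS left ventricles lie at 19.2 to 21.9 CPM in the beta panel and control left ventricles at 25.1 to 28.7 CPM, and in the gamma panel the E17.5 libraries are the lowest of each group.

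Gene by gene, 1 member passed the test of HLHS against control in the left ventricle. Of all 15979 genes tested, 12.8% passed, 6.17% as higher and 6.61% as lower, and of the 24 members 22 had enough counts to be tested (not Pcdhb1 and Pcdhb12). Pcdhb7 (ENSMUSG00000045062) had 0.977, 0.711 and 0.817 CPM in HLHS left ventricles 1 to 3, against 1.18, 1.53, 1.64, 1.74 and 1.53 CPM in control left ventricles 1 to 5. All HLHS values lay below all control values, the nearest pair being the littermates of E13.5. It fell by 0.86 ± 0.24 (log2 ± SE; adjusted p = 0.0431, edgeR quasi-likelihood test, Benjamini-Hochberg adjustment over all genes). The call is narrow: the adjusted p was 0.129 in DESeq2, and with 1 embryo left out it ranged from 0.0352 to 0.192 and was over the threshold without control 2, 3, 4 or 5 or HLHS 2 or 3.

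Pcdhb20 was next. It had 1.91, 1.55 and 2.06 CPM in HLHS left ventricles, against 2.74, 2.78, 3.31, 2.57 and 2.59 CPM in control left ventricles, again without overlap. Its log2 difference was −0.60 ± 0.18 (SE), with an adjusted p of 0.0563 in edgeR. Without HLHS 3 it passed, with an adjusted p of 0.0415, and Pcdhb7 did not. Pcdhb10, a gene of 3 to 15 reads per library, had 0.127, 0.251 and 0.194 CPM in HLHS left ventricles and 0.644, 0.604, 0.502, 0.291 and 0.314 CPM in control left ventricles. Its log2 difference was −1.26 ± 0.40 (SE; adjusted p = 0.0673 in edgeR). Pcdhb17, the most abundant beta gene, had 2.17, 2.93 and 3.42 CPM in HLHS left ventricles and 3.00, 4.27, 3.51, 5.11 and 4.40 CPM in control left ventricles. Here the groups overlapped, though each HLHS embryo was below its littermates, and the log2 difference was −0.45 ± 0.14 (SE; adjusted p = 0.0682 in edgeR).

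All 20 tested beta genes had a negative log2 difference in the left ventricle, from −1.26 to −0.02 with a median of −0.42. Over all genes tested the median was 0.01 and 48.6% were negative. With 1 embryo left out, every tested beta gene stayed negative only without control 2 or control 4. The count was 20 of 21 without control 1 or HLHS 1 and 17 of 18 without control 3. It was 19 of 20 without HLHS 2 or HLHS 3, and 18 of 19 without control 5. The beta genes share libraries and stretches of sequence, so their signs are not independent. An unadjusted p under 0.05 was found for 6 members, all lower, and for 28.8% of all genes tested. In 4 of the 20 tested beta genes (Pcdhb7, Pcdhb10, Pcdhb13 and Pcdhb20) every HLHS left ventricle was below every control left ventricle, a pattern found in 2.85% of all genes tested. At the other end Pcdhb18 and Pcdhb21 had log2 differences of −0.02 and −0.06. The alpha row had a log2 difference of −0.58 ± 0.30 (SE; adjusted p = 0.236 in edgeR), and the gamma row one of 0.06 ± 0.06 (SE; adjusted p = 0.539 in edgeR). The 95% interval of the gamma row's difference, −0.07 to 0.19, does not reach the beta median, which has no interval here, but it holds the values of Pcdhb18 and Pcdhb21. Whether the gamma row and the beta genes differ in their HLHS difference was not tested.

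**Figure D3:**
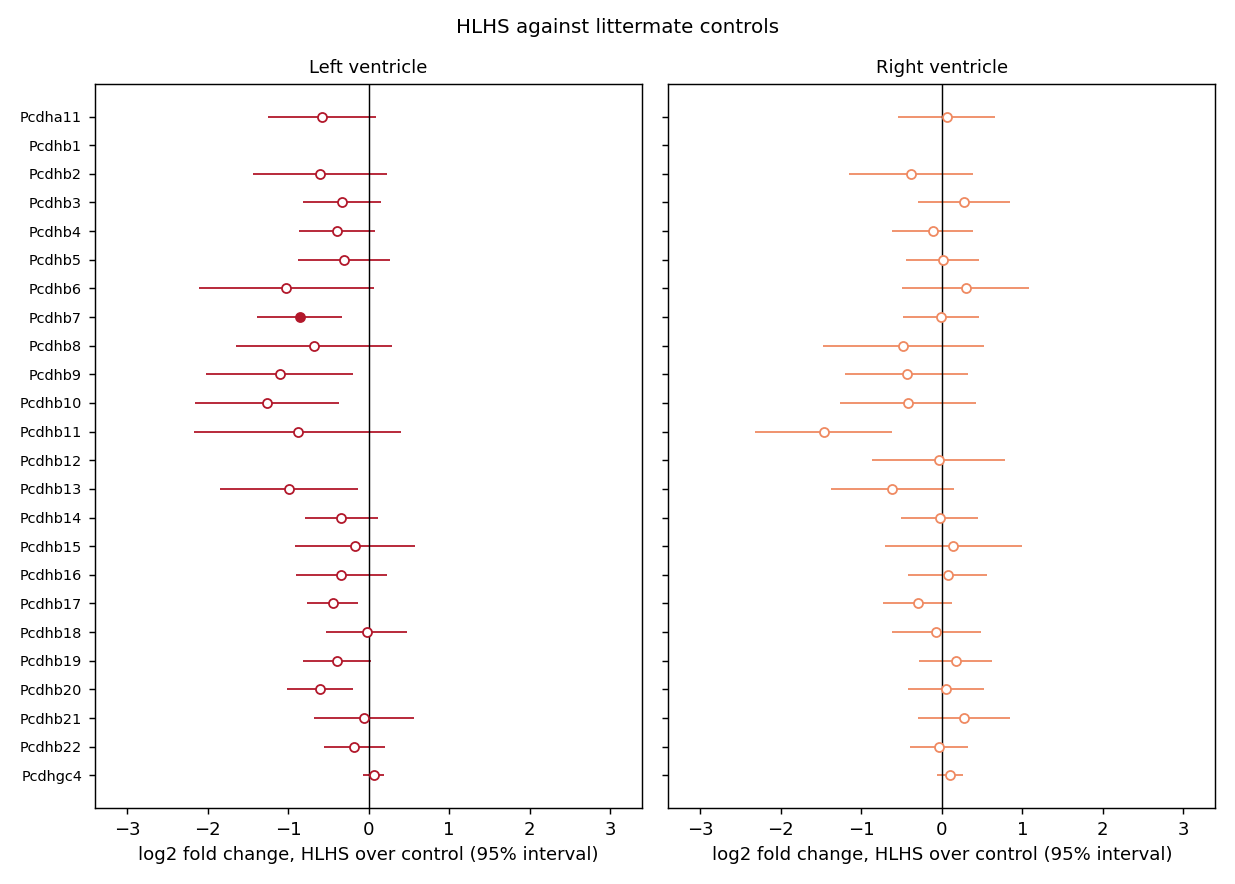
Log2 fold change of HLHS over littermate controls (horizontal axis) with its 95% interval for each tested member in the left and the right ventricle; filled points passed an adjusted p of 0.05, and rows without a point were not tested. In the left ventricle all 20 tested beta genes lie below 0 and Pcdhb7 passed; in the right ventricle 13 of 21 lie below 0 and no member passed.

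In the right ventricle the beta cluster of HLHS hearts was not set apart from controls. Its sum was 23.7, 37.2 and 34.7 CPM in HLHS right ventricles of E13.5, E14.5 and E17.5, against 29.7 CPM (E13.5), 43.7 and 31.6 CPM (E14.5) and 28.5 and 37.8 CPM (E17.5) in control right ventricles. The HLHS value was below its littermate at E13.5 and between its littermates at both later stages. The mean was 31.9 ± 7.15 CPM in HLHS right ventricles (SD, n = 3) and 34.3 ± 6.37 CPM in control right ventricles (SD, n = 5), and the log2 difference within litters was −0.09 ± 0.20 (SD over 3 litters). No member passed in edgeR, where 6.61% of 16142 genes did (3.56% higher, 3.05% lower); 1 of the 23 tested members had an unadjusted p under 0.05. DESeq2 called none and limma-voom called 1, the same Pcdhb11.

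Pcdhb11 had 0.375, 0.107 and 0.196 CPM in HLHS right ventricles, which is 3 to 7 reads, against 0.645, 0.534, 0.528, 0.431 and 0.646 CPM in control right ventricles, which is 11 to 17 reads. The groups did not overlap; 2.66% of all genes tested showed that pattern. Its log2 difference was −1.46 ± 0.38 (SE; adjusted p = 0.0504 in edgeR, and 0.0492 in limma-voom). With 1 embryo left out its adjusted p in edgeR ranged from 0.058 to 0.196. In DESeq2 the smallest adjusted p of any member was 0.487. Pcdhb13 followed with −0.62 ± 0.34 (SE; adjusted p = 0.318 in edgeR) and Pcdhb17 with −0.30 ± 0.19 (SE; adjusted p = 0.387 in edgeR). Of the 21 tested beta genes 13 were negative, with a median of −0.04. The gamma row differed by 0.10 ± 0.07 (SE; adjusted p = 0.455 in edgeR).

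With both ventricles of an embryo summed, no member passed in edgeR, DESeq2 or limma-voom, where 13.8% of 17429 genes passed in edgeR (6.85% higher, 6.93% lower); 6 members had an unadjusted p under 0.05, all lower. Pcdhb11 had a log2 difference of −1.25 ± 0.37 (SE; adjusted p = 0.0513), Pcdhb9 one of −0.75 ± 0.24 (SE; adjusted p = 0.0678) and Pcdhb17 one of −0.36 ± 0.13 (SE; adjusted p = 0.102), all in edgeR. Without control 4, Pcdhb11 passed (adjusted p = 0.0271). Whether the HLHS difference itself was larger in the left than in the right ventricle was tested within embryos. No member passed that test in edgeR, DESeq2 or limma-voom, and 0.0182% of 16508 genes did in edgeR; 1 member, Pcdhb7, had an unadjusted p under 0.05. The left HLHS difference minus the right one was −0.82 ± 0.34 for Pcdhb7 (SE; adjusted p = 0.511), −0.63 ± 0.30 for Pcdhb20 (SE; adjusted p = 0.612) and −0.49 ± 0.27 for Pcdhb19 (SE; adjusted p = 0.689), all in edgeR. A left-sided restriction of the beta difference is therefore not shown by these tests.

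Within hearts, the left ventricle had on average less beta protocadherin RNA than the right one. In HLHS embryos the log2 difference of the beta sum, left minus right, was −0.24 in the E13.5 embryo, −0.96 in the E14.5 embryo and −0.66 in the E17.5 embryo, with a mean of −0.62 ± 0.36 (SD over 3 embryos). In control embryos it was −0.25 in the E13.5 embryo, −0.68 and −0.15 in those of E14.5 and −0.02 and −0.40 in those of E17.5, with a mean of −0.30 ± 0.25 (SD over 5 embryos). The difference of the beta sum was negative in all 8 hearts. In control embryo 4 the left had 28.1 CPM and the right 28.5 CPM, each inside the other's 95% Poisson interval. Overlap of 2 such intervals does not by itself place a difference within counting error. The 95% Poisson intervals of left and right overlapped in HLHS embryo 1 and in control embryos 1, 3 and 4. They were apart in HLHS embryos 2 and 3 and in control embryos 2 and 5. The share of all genes lower on the left in all 8 hearts is not given here. The alpha row had a mean difference of −1.06 ± 0.45 in HLHS embryos (SD, n = 3) and of −0.34 ± 0.42 in control embryos (SD, n = 5). The gamma row had one of −0.15 ± 0.01 in HLHS embryos (SD, n = 3) and of −0.12 ± 0.12 in control embryos (SD, n = 5).

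No single member passed for side in edgeR, DESeq2 or limma-voom, in HLHS or in control embryos. In HLHS embryos, where 4.04% of 15771 genes passed in edgeR (1.15% higher, 2.89% lower), 9 of the 18 tested members had an unadjusted p under 0.05, against 16% of all genes, and all were lower on the left. Pcdhb19 had 1.70, 1.63 and 1.79 CPM in left ventricles of HLHS embryos 1 to 3, against 2.25, 3.44 and 3.73 CPM in their right ventricles. The left value was the lower one in each embryo, and the log2 difference was −0.84 ± 0.23 (SE; adjusted p = 0.0934 in edgeR). Pcdhb17 differed by −0.66 ± 0.20 (SE; adjusted p = 0.118 in edgeR) and Pcdhb20 by −0.76 ± 0.23 (SE; adjusted p = 0.132 in edgeR). All 16 tested beta genes were negative, with a median of −0.61 against 0.01 over all genes. Without HLHS 2, 14 of 15 tested beta genes were negative. In 11 of the 16 the left ventricle was below the right one in all 3 embryos, a pattern found in 20.2% of all genes tested.

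In control embryos 6.1% of 16238 genes passed in edgeR (2.09% higher, 4.01% lower), and 5 of the 23 tested members had an unadjusted p under 0.05, all lower on the left, against 21% of all genes. Pcdhb17 had 3.00, 4.27, 3.51, 5.11 and 4.40 CPM in left ventricles of control embryos 1 to 5, against 4.98, 6.71, 5.03, 4.27 and 7.49 CPM in their right ventricles. Only embryo 4, of E17.5, had the higher value on the left. The log2 difference was −0.48 ± 0.15 (SE; adjusted p = 0.0972 in edgeR), and without embryo 4 the adjusted p was 0.0144. Pcdhb14 differed by −0.52 ± 0.18 (SE; adjusted p = 0.132 in edgeR) and Pcdhb22 by −0.38 ± 0.15 (SE; adjusted p = 0.160 in edgeR). Of 21 tested beta genes 19 were negative, with a median of −0.33 against −0.01 over all genes. In 3 of them (Pcdhb11, Pcdhb14 and Pcdhb18) the left ventricle was the lower one in all 5 embryos, as in 10.5% of all genes tested.

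**Figure D4:**
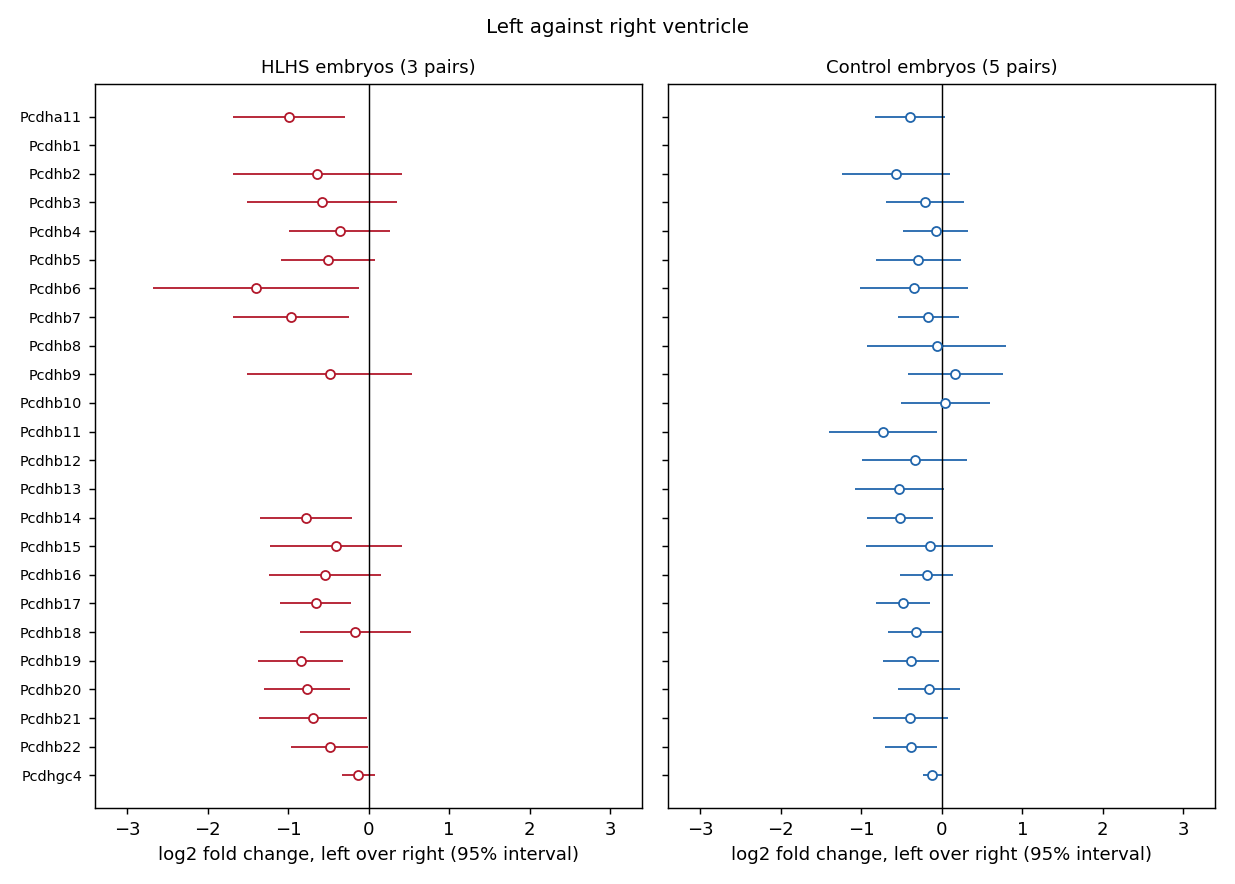
Log2 fold change of the left over the right ventricle (horizontal axis) with its 95% interval for each tested member, in 3 HLHS and 5 control embryos; no member passed an adjusted p of 0.05, and rows without a point were not tested. All 16 tested beta genes lie below 0 in HLHS embryos and 19 of 21 in control embryos.

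Between E14.5 and E17.5 the gamma row fell in control hearts. In left ventricles it had 335 CPM (E13.5), 277 and 277 CPM (E14.5) and 212 and 237 CPM (E17.5). In right ventricles it had 334 CPM (E13.5), 333 and 321 CPM (E14.5) and 213 and 253 CPM (E17.5). The E17.5 libraries were below the E14.5 libraries on both sides. With both ventricles summed per embryo, the row fell by 0.39 ± 0.08 at E17.5 against E14.5 (log2 ± SE, 2 embryos each; adjusted p = 0.0140 in edgeR), where 30% of 16823 genes passed, 15.8% as higher and 14.1% as lower. The 2 embryos of each stage are littermates, so stage and litter cannot be told apart, and the test treats littermates as independent. Titles of the E14.5 samples also carry the letters AP, which those of E17.5 lack. What these letters stand for is not known here, and stage cannot be told apart from it. The call held with each of the 4 embryos left out in turn (adjusted p between 0.00309 and 0.0486), in each ventricle alone, and in DESeq2 and limma-voom. HLHS embryos, 1 per stage and without a test, had 324, 296 and 242 CPM in left and 355, 330 and 268 CPM in right ventricles, in the order E13.5, E14.5, E17.5.

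For the beta cluster the difference between stages was smaller than the spread between embryos. The log2 difference of its sum, E17.5 minus E14.5, was −0.09 ± 0.17 in control embryos (pooled SD, 2 embryos each), and it ranged from −0.21 to 0.03 with 1 embryo left out. With ventricles summed, 15 of the 21 tested beta genes were negative, with a median of −0.17 against −0.01 over all genes. The sides differed: 7 of 18 were negative in left ventricles alone (median 0.05) and 16 of 21 in right ventricles alone (median −0.18). With ventricles summed, Pcdhb10 had a log2 difference of −0.90 ± 0.30 (SE; adjusted p = 0.0604 in edgeR). The alpha row had one of −0.75 ± 0.31 (SE; adjusted p = 0.112 in edgeR). That value rests on which E14.5 embryo is used: it was −0.25 (adjusted p = 0.636) without embryo 2, which holds the high right ventricle, and −1.12 (adjusted p = 0.000525) without embryo 3. The ratio of the clusters changed accordingly: as a percentage of the gamma counts, the beta counts were 12.1% and 13.3% in control left ventricles at E17.5, against 9.83% and 10.3% at E14.5, and 13.4% and 14.96% in control right ventricles at E17.5, against 13.1% and 9.85% at E14.5.

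Promoter and chromatin regulators were read from a list of 27, whose action on protocadherin promoters was not tested here. Ctcf, the cohesin subunits, Smchd1 and the DNA methyltransferases were among them. In HLHS left ventricles 2 of the 27, Sin3a and Hdac1, were higher and none lower. Over all genes tested 6.17% were higher and 6.61% lower, and the median log2 difference of the 27 was 0.06. Sin3a, the scaffold of a histone deacetylase complex, rose by 0.37 ± 0.04 (log2 ± SE; adjusted p = 0.00164 in edgeR). Hdac1, a deacetylase of that complex, rose by 0.17 ± 0.05 (log2 ± SE; adjusted p = 0.0468 in edgeR), a call that was lost when any 1 of the 8 embryos was left out. In HLHS right ventricles, where 3.56% of all genes were higher, 1 of the 27 was higher, Sin3a, by 0.36 ± 0.07 (log2 ± SE; adjusted p = 0.0200 in edgeR, kept in 4 of 8 fits with an embryo left out). None of the 27 passed between the ventricles of HLHS or of control embryos in edgeR. In control hearts 1 was higher and 3 were lower at E17.5 than at E14.5, against 15.8% and 14.1% of all genes; Hdac1 fell by 0.23 ± 0.05 (log2 ± SE; adjusted p = 0.0219 in edgeR), a call kept in 1 of 4 fits with an embryo left out.

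Of 22 genes for signalling and processing partners, 3 were higher and 1 lower in HLHS left ventricles, against 6.17% and 6.61% of all genes. Ptk2b, which codes for the kinase PYK2 that protocadherins restrain, rose by 0.44 ± 0.09 (log2 ± SE; adjusted p = 0.0113 in edgeR); without HLHS 3 the value was 0.28. Ret, a receptor tyrosine kinase gene whose product has been found with alpha and gamma protocadherins in neurons, fell by 1.94 ± 0.39 on the log2 scale (SE; adjusted p = 0.0134 in edgeR; 0.0623 without HLHS 2). In HLHS right ventricles 3 were higher and none lower, against 3.56% and 3.05% of all genes, among them Adam10, the protease that sheds the protocadherin ectodomain, by 0.35 ± 0.07 (log2 ± SE; adjusted p = 0.0193 in edgeR, kept in 3 of 8 fits with an embryo left out). At E17.5 none was higher and 4 were lower than at E14.5 in control hearts, against 15.8% and 14.1% of all genes, with Marcks, a substrate of protein kinase C in the protocadherin pathway, lower by a log2 difference of −0.54 ± 0.07 (SE; adjusted p = 0.00282 in edgeR).

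Of 12 protocadherin genes outside the clusters 11 were tested. In HLHS left ventricles 1 was higher and 2 were lower, against 6.17% and 6.61% of all genes, with a median log2 difference of −0.25. Pcdh12, an endothelial protocadherin gene, fell by 0.42 ± 0.07 in HLHS left ventricles (log2 ± SE; adjusted p = 0.00696 in edgeR), and Pcdh18 rose by 0.51 ± 0.11 (log2 ± SE; adjusted p = 0.0175 in edgeR), or by 0.29 without HLHS 3. In HLHS right ventricles Pcdh12 fell by 0.42 ± 0.08 (log2 ± SE; adjusted p = 0.0181 in edgeR; kept in 4 of 8 fits with an embryo left out) and Pcdh11x rose by 1.19 ± 0.22 (log2 ± SE; adjusted p = 0.0159 in edgeR; kept in 5 of 8). At E17.5 against E14.5, 3 were higher and 1 was lower in control hearts, against 15.8% and 14.1% of all genes; Pcdh19 rose by 0.84 ± 0.11 and Pcdh12 by 0.56 ± 0.07 (log2 ± SE; adjusted p = 0.00334 and 0.00313 in edgeR).

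Of 20 classical cadherins and catenins 18 were tested in the left ventricle, and 1 was higher and 1 lower in HLHS, about the 6.17% and 6.61% of all genes. Cdh3, the P-cadherin gene, rose by 0.76 ± 0.10 (log2 ± SE; adjusted p = 0.00227 in edgeR), and Cdh5, the VE-cadherin gene of endothelium, fell by 0.27 ± 0.07 (log2 ± SE; adjusted p = 0.0379 in edgeR; kept in 2 of 8 fits with an embryo left out). In HLHS right ventricles 2 were higher and none lower, against 3.56% and 3.05% of all genes. Between the ventricles of control embryos 4 were lower on the left and none higher, against 4.01% and 2.09% of all genes; Cdh6, the K-cadherin gene, fell by 1.43 ± 0.27 on the log2 scale (SE; adjusted p = 0.0122 in edgeR). At E17.5 against E14.5, 3 were higher and 6 lower in control hearts, against 15.8% and 14.1% of all genes, and Cdh3 fell by 1.15 ± 0.10 (log2 ± SE; adjusted p = 0.00115 in edgeR).

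Some markers of other cell types passed in the same contrasts. Over all genes, 6.17% were higher and 6.61% lower in HLHS left ventricles and 3.56% and 3.05% in HLHS right ventricles; 2.89% in HLHS and 4.01% in control embryos were lower on the left, and 15.8% were higher and 14.1% lower at E17.5. In left ventricles, 3 of 8 endothelial markers were lower and none higher, and they summed to 952 to 1270 CPM in HLHS against 1260 to 1390 CPM in control left ventricles. Of 8 fibroblast markers 4 were lower, with sums of 3660 to 4410 CPM in HLHS against 4220 to 5380 CPM in control left ventricles. Of 7 erythroid markers 6 were higher, with sums of 215 to 487 CPM in HLHS against 130 to 299 CPM in control left ventricles. Of the cushion and valve markers 1 of 6 was higher, with sums of 312 to 655 CPM in HLHS against 257 to 447 CPM in control left ventricles. In right ventricles, 3 of 6 cushion and valve markers were higher, with sums of 681 to 1130 CPM in HLHS against 279 to 731 CPM in control right ventricles; no fibroblast marker passed there in edgeR, with sums of 5120 to 6920 CPM in HLHS against 2910 to 5950 CPM in control right ventricles. Of 8 cardiomyocyte markers 2 were lower in HLHS left ventricles and 1 was lower in HLHS right ventricles. Between the ventricles, 6 of 6 cushion and valve markers were lower on the left in HLHS embryos and 5 of 6 in control embryos, and 4 of 8 fibroblast markers in HLHS embryos and 1 of 8 in control embryos. Of 4 atrial markers 3 were lower on the left in control embryos and none in HLHS embryos. Of 7 erythroid markers 4 were higher on the left in HLHS embryos, against 1.15% of all genes, and none in control embryos. At E17.5 against E14.5 in control hearts, 4 of 8 cardiomyocyte markers were higher and 4 of 7 erythroid markers lower. The part of these cell types in the protocadherin differences was not tested.

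Neural cells are those in which clustered protocadherins are best known. The 12 neuron markers together had 25.6 to 41.6 CPM in HLHS left, 17.4 to 34.4 CPM in control left, 32.8 to 46.3 CPM in HLHS right and 22.7 to 38.6 CPM in control right ventricles, sums of about the size of the beta sum. Gap43 had 9.75 to 29.5 CPM, Stmn2 had 1.39 to 7.58 CPM and Tubb3 0.581 to 5.30 CPM, whereas Chrna3 was at 0 in 15 libraries and Th in 4. In HLHS left ventricles 1 of 6 tested neuron markers was higher and none lower, against 6.17% and 6.61% of all genes. In HLHS right ventricles 2 of 9 tested were higher and none lower, against 3.56% and 3.05%. On the left, 2 of 8 tested in HLHS embryos and 2 of 9 in control embryos were lower than on the right. Over all genes 2.89% and 4.01% were. The 8 Schwann cell and neural crest markers had 34.7 to 42.0 CPM in HLHS left, 38.7 to 48.7 CPM in control left, 36.7 to 42.1 CPM in HLHS right and 43.9 to 52.3 CPM in control right ventricles. Of 6 tested, none passed in the left ventricle and 2 were lower in the right one, against 3.05% of all genes. Leukocyte, epicardial and atrial markers had no call between HLHS and control in either ventricle in edgeR. Smooth muscle markers had 2 of 6 higher and 1 lower in the left ventricle, against 6.17% and 6.61% of all genes. In the right ventricle 2 of 6 were higher and none lower, against 3.56% and 3.05%.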

How the data were processed

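Total RNA of ventricles was sequenced from TruSeq libraries, per the labels' protocols. The authors deposited raw counts per gene; the submitters' processing notes name TopHat2 2.0.9, Picard, HTSeq 0.5.4p5, edgeR 3.4.2 and build mm9, and on gene models, strand setting, read length and duplicate handling nothing is given in the sources used here. No coordinates or sequences are printed. Symbols came from GENCODE M21 and were found for 32919 of 37991 IDs; that annotation names the alpha row's ID Pcdha11, a name that RefSeq's gene starts do not bear out.

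Counts were analysed in R 4.3.3 with edgeR 4.0.16: filterByExpr (minimum count 10, total 15), TMM factors, quasi-likelihood test, Benjamini-Hochberg adjustment over all genes tested, threshold 0.05. HLHS contrasts carried the litter (and thereby the stage) as a block; side contrasts and the test of the side difference carried the embryo. Embryo pairing comes from the labels: within stages, the differences between the 2 control embryos correlated between ventricles with r = 0.357 (E14.5) and 0.481 (E17.5) over 16209 genes. Over the 22 beta genes r was 0.417 (E14.5) and −0.01 (E17.5), so at E17.5 the pairing was not visible in these genes. Alternatives used DESeq2 1.42.0 and limma-voom (limma 3.58.1). No replicate pair of libraries agreed within sampling noise (chi-square per degree of freedom of at least 7.01 over 26 pairs). Depth was 17081273 to 28648645 counts; a gene of 10 counts has a wide counting error. P-values measure the spread between these embryos. The code was tested on simulated data.

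The members, gene lists and tests were chosen with earlier results of these data known. Named genes are every member past the threshold, the 3 of smallest p where fewer than 3 passed, the 3 highest beta genes, C-type genes and up to 4 called genes of each list; not all called list genes are named. Beta genes outside this rule (Pcdhb1, Pcdhb2, Pcdhb12, Pcdhb15, Pcdhb18, Pcdhb21, and Pcdhb17 in the left ventricle) were named after their values were seen.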

Additional observations from a re-analysis of the deposited data

Results flagged for a closer look

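Of 50 tests for a library that stands apart within a control group of 5, 6 were positive, where chance alone gives about 1 in 20; control groups mix 3 stages. In control right ventricle 2 (E14.5) the alpha row had 2.63 CPM, against 0.938 to 1.42 CPM in the other four, and Pcdhb21 had 2.37 CPM, against 1.06 to 1.33 CPM. In control left ventricle 3 (E14.5) Pcdhb20 had 3.31 CPM, against 2.57 to 2.78 CPM, and Pcdhb18 had 2.07 CPM, against 1.38 to 1.57 CPM. In control left ventricle 1 (E13.5) Pcdhb2 had 0.644 CPM, against 0.249 to 0.354 CPM. Pcdhb1 had 0.0586 CPM, which is 1 read, in control right ventricle 1 and none in the other four. Groups of 3 HLHS libraries were not tested.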

How the results depend on the processing

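Cluster sums were recomputed with plain library totals, with DESeq2 size factors and without Pcdhb17 in the beta sum. Every contrast kept its value within the spread between replicates. With each embryo left out it did so too, but omitting 1 of so few values can hardly move a mean beyond their spread. The alpha difference of E17.5 against E14.5 ranged from −1.14 to −0.29 in those fits. The alpha and gamma sums have no value without their single row, and the gamma sum none without its C-type gene. With 1 embryo left out the beta log2 difference of HLHS against control ranged from −0.46 to −0.34 in the left ventricle and from −0.17 to 0.02 in the right one, and left against right ranged from −0.81 to −0.45 in HLHS and from −0.37 to −0.20 in control embryos. Means near 0 changed sign with 1 embryo left out: in the right ventricle the beta difference was 0.02 and the alpha difference −0.01 without control 1, and the beta difference of E17.5 against E14.5 was 0.03 without control 2. Refits of single genes covered the members named by the rule and, in some comparisons, the first called genes of each list. None of these values changed sign, while 83 lost and 14 gained a call, and the cause was not tested. The left ventricle values of Pcdhb17, Pcdhb18 and Pcdhb21 were not among them. The number of members called was less stable. In the left ventricle it was 0 in DESeq2, 0 without the replicate block, 3 with no count filter (Pcdhb7, Pcdhb9 and Pcdhb20) and 0 to 1 with 1 embryo left out. In the right ventricle 1 member, Pcdhb11, was called with DESeq2 size factors, with limma-voom and with no count filter. With ventricles summed it was 2 with no count filter (Pcdhb9 and Pcdhb11) and 0 to 1 with 1 embryo left out. For side it was 3 in HLHS embryos (Pcdhb17, Pcdhb19 and Pcdhb20) and 1 in controls (Pcdhb17) with no count filter, and 0 to 1 in controls with 1 embryo left out. For stage it was 2 with left ventricles alone (Pcdhgc4 and Pcdhb15) and 1 to 2 with 1 embryo left out, the second being Pcdhb9 without control 2 and Pcdha11 without control 3.

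Counts over all genes show how far the background moves. Without the replicate block 1 gene passed in the left ventricle against 2043 with it, 0 in the right against 1067, 0 with ventricles summed against 2401, 0 for the side difference against 3, 4 for side in HLHS embryos against 637 and 32 in controls against 990. With no count filter 1720 genes passed in the right ventricle, 217 for the side difference, 1309 for side in HLHS embryos and 1570 in controls. The side difference had 132 calls in DESeq2 and 5 in limma-voom, and right ventricles alone gave 2905 genes for stage against 5043. With 1 embryo left out the counts were 845 to 2309 in the left ventricle, 195 to 1518 in the right, 865 to 2135 with ventricles summed, 0 to 135 for the side difference, 270 to 1117 for side in HLHS embryos and 486 to 883 in controls. Depth limits the single genes: 13 to 20 of the 22 beta genes had 10 reads in a library, and with 1 HLHS embryo per stage no stage can be tested in HLHS.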
